A study of Mus musculus with 24 samples.

Results

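The 10 genes described here belong to the insulin-like growth factor (IGF) system: the ligand gene Igf1, the receptor genes Igf1r and Insr, the adaptor gene Irs2, and the binding protein genes Igfbp2, Igfbp3, Igfbp4, Igfbp5, Igfbp6 and Igfbp7. They were taken by symbol from 4 tables of normalized nuclear RNA levels that hold 15709 different genes in all. Earlier results of these data were known when the 10 genes were chosen. The tables for postnatal day 24 (P24, 15246 genes) and for age (14985 genes) had rows for all 10, and those for P4 (14243 genes) and P10 (13699 genes) had rows for 9, without Igfbp6. The libraries came from 24 mouse pups, 1 library per pup, all Aldh1l1-creERT2(+/-); R26-LSL-Sun1.GFP(+/-). In these animals a Cre recombinase that tamoxifen activates, driven by the astrocyte gene Aldh1l1, switches on a GFP-tagged nuclear envelope protein, and GFP-positive nuclei were sorted from the lumbar (L3-L5) dorsal horn on the side of the operated paw. Incised pups had 1 hindpaw cut on P3, and naive pups had isoflurane without surgery. Tissue was collected at P4, P10 or P24 (1, 7 or 21 days after surgery), which gave 6 groups of 4 pups. The labels used here give no tamoxifen dose or time. The study compared incised with naive pups at each age, and naive pups across ages.

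IGF1, IGF2 and insulin act through receptor tyrosine kinases, the IGF1 receptor and the insulin receptor, which pass the signal through adaptors such as IRS2 to the PI3K, AKT and mTOR branch and to the RAS and MAPK branch. The binding proteins are secreted, hold IGF outside cells, lengthen its life or keep it from the receptor, and release it when proteases cut them. In the developing nervous system IGF signalling is known for its part in cell growth, survival and myelination, and Igfbp2 is a well-known product of astrocytes.

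All 10 genes are protein-coding in GENCODE vM21 (GRCm38, the same assembly as the authors' mm10). Igfbp2 (chr1:72824503-72852474, plus strand) and Igfbp5 (chr1:72857932-72874884, minus strand) lie tail to tail with 5457 bases between them. Igfbp3 (chr11:7206086-7213923, minus strand) lies 3539 bases from Igfbp1, a binding protein gene with no row in any table used here. The others are Igfbp4 (chr11:99041244-99054392, plus), Igfbp6 (chr15:102144362-102149511, plus), Igfbp7 (chr5:77349240-77408041, minus), Igf1 (chr10:87858265-87937042, plus), Igf1r (chr7:67952827-68233668, plus), Insr (chr8:3122061-3279617, minus) and Irs2 (chr8:10984681-11008458, minus). RefSeq (GRCm38.p6) gave a promoter window for 9 of 10, and Insr had none.

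The promoters of Igfbp2 and Igfbp3 are shown because these genes differed most clearly with age, in opposite directions. Each is the 250 bases before the RefSeq start site, 5′ to 3′ on the gene's strand, at chr1:72824230-72824479 (plus) and chr11:7213924-7214173 (minus). Capitals mark every match to the GC box GGGCGG, the TATA box TATAAA or the FOXO core GTAAACA on either strand.
Igfbp2: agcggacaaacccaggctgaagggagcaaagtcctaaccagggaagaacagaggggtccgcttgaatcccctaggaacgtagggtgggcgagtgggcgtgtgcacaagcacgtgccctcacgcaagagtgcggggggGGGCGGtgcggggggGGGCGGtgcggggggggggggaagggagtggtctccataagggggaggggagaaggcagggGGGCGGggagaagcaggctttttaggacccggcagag
Igfbp3: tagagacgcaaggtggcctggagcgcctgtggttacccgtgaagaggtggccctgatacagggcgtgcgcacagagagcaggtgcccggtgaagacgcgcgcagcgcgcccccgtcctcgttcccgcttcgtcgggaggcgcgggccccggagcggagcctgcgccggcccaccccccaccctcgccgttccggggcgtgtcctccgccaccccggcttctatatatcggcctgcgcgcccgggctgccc
The Igfbp2 window held 3 GC boxes, 113, 98 and 37 bases before the start site, and neither of the other motifs. The Igfbp3 window held none of the 3 motifs as spelled here. Over 32851 mouse promoter windows of this length, 32.7% held a GC box, 12.4% a TATA box and 3.17% the FOXO core. The GC content was 67.2% for Igfbp2 and 73.2% for Igfbp3, against a median of 52.4% over all windows. Among the other members with a window, GC boxes were found at Igf1r (2), Irs2 (1) and Igfbp7 (4), and a TATA box at Igfbp4 and Igfbp6 (1 each). These are matches of letters, not sites shown to be bound.

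The astrocyte label was checked against 12 marker genes, among them Aldh1l1, Gfap, Aqp4 and Slc1a2. All 12 were above 0 in every naive library, and their summed values were 77849 to 89868 (P4), 93883 to 133788 (P10) and 103159 to 151560.0 (P24). Sums for 10 oligodendrocyte markers, all 10 in the table, went from 1356 to 2471 in P4 pups through 12413 to 21898 in P10 pups and reached 80474 to 93457 in P24 pups. Those of 9 oligodendrocyte precursor markers, all 9 in the table, were 1935 to 2255, 1888 to 3101 and 5079 to 6663. For 5 of 10 fibroblast and meningeal markers the sums were 1438 to 1871, 1728 to 2088 and 2323 to 3388, and for 7 of 10 endothelial markers 626 to 809.6, 408 to 562 and 269 to 437. The fibroblast and meningeal markers did not move together. Apod, Col1a1 and Pdgfra, which is also in the precursor list, were higher in all P24 than in all P4 libraries. Col1a2 was lower, at 977 to 1231 at P4 and 467 to 880 at P24, and Aldh1a2 overlapped. The 10 neuron markers, all 10 in the table, summed to 5689 to 7316, 4026 to 5337 and 7799 to 10629.8, lowest at P10 and highest at P24 without overlap, and 9 of 10 microglia markers to 1011 to 1225, 639.6 to 878 and 898 to 1302. Snap25 was the largest single part of the neuron sums at P24. Over naive and incised libraries of separately normalized tables, its median was 856 at P4, 1343 at P10 and 6476 at P24. Stmn2 (1654, 916 and 812) and Tubb3 (1138, 655 and 914) were highest at P4, and Syt1 (477, 213 and 488) dipped at P10. Rbfox3 (364, 309 and 522), Slc17a6 (388, 156 and 432), Gad1 (208, 181 and 326) and Elavl4 (214, 145 and 246) dipped likewise. Gad2 (103, 125 and 109) was highest at P10, and Slc32a1 (48.5, 51.5 and 92.7) at P24. Sums of 9 of 10 mural cell markers were 547 to 885, 587 to 1032 and 715 to 1146, and those of 2 of 8 ependymal markers 14.6 to 44.9, 37.9 to 82.6 and 18.4 to 88.2. Both overlapped between all ages. Sums of several other cell types therefore moved with age, and their part in the age differences below was not tested. Values are the authors' DESeq2-normalized levels, scaled for library depth and not for gene length, so levels are compared between groups for 1 gene and not between genes. Read depth is unknown, and fewer nuclei of a type and less RNA per nucleus cannot be told apart. The titles of 2 libraries, P10 naive replicate 4 and P10 incised replicate 4, contradict their other labels. Calls that rest on them were also tested without both.

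Between ages in naive pups, Igfbp2 fell and Igfbp3 rose by P24, while the ligand, the receptors and the adaptor did not pass the test. Each gene was fitted with limma on log2(value + 1) with sex as a term, and called where the 2-sided p, adjusted by Benjamini and Hochberg over all 14985 genes, was under 0.05. Log2 changes below are on this scale, where the added 1 makes the changes of low genes look smaller. Sex was not balanced in 2 groups. By the deposited sample sheet, replicate 4 was the only male of the P24 naive group, and replicate 1 the only female of the P4 incised group. Sex and group were thus partly tied in the comparisons with these groups. Of the 10 genes, 2 were called for any difference between ages (Igfbp2 and Igfbp3), and 24.8% of all genes were, so the share among the IGF genes was near the background. For P24 against P4, 3 of 10 were called (Igfbp2, Igfbp3 and Igfbp6), against 18.1% of all genes. P24 against P10 gave 2 of 10 (Igfbp2 and Igfbp3), against 13.1%, and P10 against P4 gave 0 of 10, against 13.1%. For P10 against P4, 1 member (Igfbp5) had an unadjusted p under 0.05, as did 4068 of all 14985 genes. The members' median log2 change for P24 against P4 was -0.11, and that of all genes was 0.01. Where ranges are said below not to overlap between ages, the share of all genes that separate in this way was not counted.

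**Figure D1:**
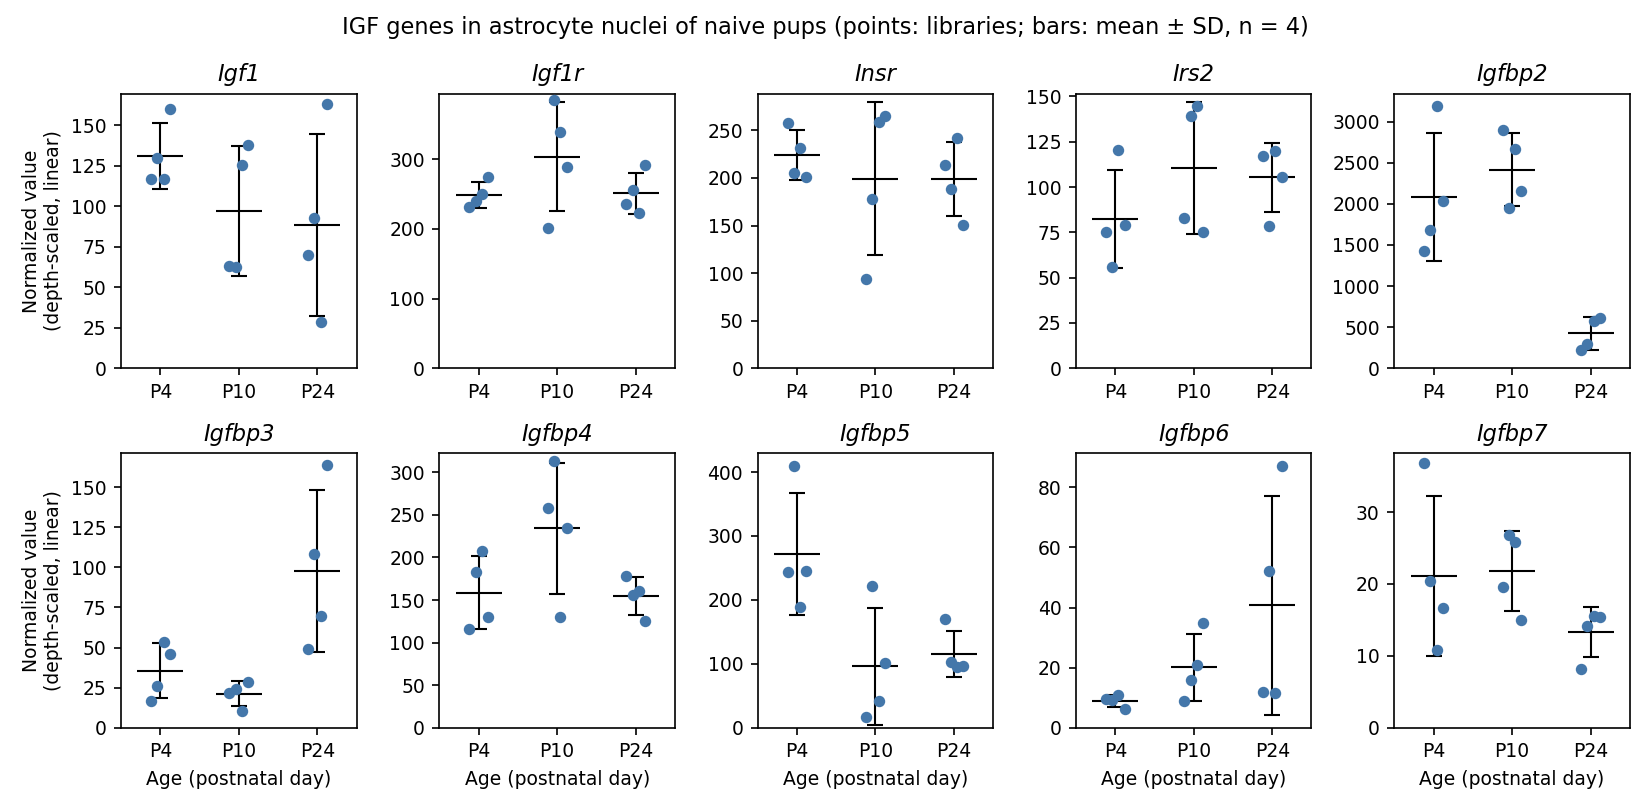
Normalized values (vertical axes, linear, from 0) of the 10 IGF genes in naive pups at P4, P10 and P24, with 1 panel per gene. Points are libraries and bars the mean ± SD of 4. The Igfbp2 points of P24 lie below those of both earlier ages, and the Igfbp3 points of P24 lie above those of P10.

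Igf1 encodes the secreted growth factor itself. Its values in naive pups were 117, 130.1, 117 and 159.9 at P4, 63.1, 62.5, 126 and 138 at P10 and 69.9, 92.7, 28.4 and 163 at P24. The mean was 131 ± 20.3 at P4, 97.3 ± 40.1 at P10 and 88.5 ± 56.4 at P24 (SD, n = 4), but the ranges overlapped and the test of any age difference did not pass (adjusted p = 0.357). The spread widened with age, and the P24 libraries alone spanned 28.4 to 163.

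Igf1r encodes the main IGF receptor. Its values were 231, 240.0, 250.5 and 274 at P4, 202, 385, 339 and 289 at P10 and 235, 255, 223 and 291 at P24. The narrow P4 and P24 ranges lay within the wider range of P10, and the ages were not told apart (adjusted p = 0.600). Insr, the insulin receptor gene, had 258, 206, 232 and 201 at P4, 93.9, 178, 259 and 265 at P10 and 213, 188, 242 and 150.4 at P24. Its lowest library was P10 naive replicate 1, its ranges overlapped at all ages, and the test did not pass (adjusted p = 0.723). The log2 difference between P24 and P4 was 0.06 (SE 0.21) for Igf1r and -0.14 (SE 0.27) for Insr.

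Irs2, which couples both receptors to PI3K, was at 75.01, 56.03, 120.3 and 79.1 at P4, 83.2, 139, 145 and 75.4 at P10 and 117, 78.5, 120.1 and 105 at P24. These ranges overlapped, and the means of 82.6 ± 27.1, 111 ± 36.4 and 105 ± 18.97 (SD, n = 4 each) did not differ by the test (adjusted p = 0.468).

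Igfbp2 showed the largest fall among the members. The naive libraries held 1426, 1685, 3192 and 2039 at P4, 2899.8, 1948, 2663 and 2152 at P10 and 216, 297, 579 and 606 at P24. Every P24 library was below every P4 and P10 library, while the P10 range lay within that of P4. The mean went from 2416 ± 441 at P10 to 425 ± 197 at P24 (SD, n = 4), a log2 change of -2.49 (SE 0.29, adjusted p = 8.23e-05) or 5.63-fold lower. Against P4 (2086 ± 779) the change at P24 was -2.23 (SE 0.29, adjusted p = 9.53e-05), and between P4 and P10 it was 0.26 (SE 0.29, adjusted p = 0.605). Without the pair of libraries with contradictory titles, the P24 against P10 change was -2.62 (adjusted p = 5.26e-05). The incised libraries, which the age test did not use, held 2796, 4561, 2636 and 2121 at P4, 2146, 1718, 1905 and 838 at P10 and 489, 482, 590.3 and 335 at P24, the P24 values again below all others. Those levels come from 3 tables normalized separately. A naive library's values in the age table, divided by those in its own age's table, had a median ratio of 0.853 to 1.19, above 1 at P4 and P10 and below 1 at P24. The authors' deposited table gives an adjusted p of 1.55e-17 for Igfbp2 from a likelihood ratio test of age.

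Igfbp3, the main carrier of IGF in blood, moved the other way. Its values were 16.8, 25.7, 53.3 and 46.2 at P4, 21.9, 24.3, 10.4 and 28.3 at P10 and 49.05, 108, 69.9 and 163 at P24. The lowest P24 library was above the highest P10 library, and the P24 range overlapped that of P4. The mean rose from 21.2 ± 7.65 at P10 to 97.7 ± 50.3 at P24 (SD, n = 4), a log2 change of 2.25 (SE 0.44, adjusted p = 0.00111, 4.74-fold). Leaving out the libraries with contradictory titles gave 2.30 (adjusted p = 0.00148). Compared with P4 the change at P24 was 1.58 (SE 0.44, adjusted p = 0.0128), and this call was lost without P4 naive replicate 1, P24 naive replicate 2 or P24 naive replicate 4, where the adjusted p reached 0.113. Like the Igfbp3 mean, the neuron marker sums were lowest at P10 and highest at P24, where Snap25 was their largest single part. Medians of Rbfox3, Syt1, Slc17a6, Gad1 and Elavl4 had the same order in the separately normalized tables. Those tables give lower values at P4 and P10, and higher values at P24, than the age table. Of the other neuron markers, Stmn2 and Tubb3 were instead highest at P4 and Gad2 at P10, and Slc32a1 and Snap25 did not dip at P10. The part of neuron markers in the Igfbp3 values was not tested. P10 against P4 gave -0.66 (SE 0.43, adjusted p = 0.342). The authors' deposited table lists 7.68e-07 as the adjusted p of its age test.

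Igfbp4, a binding protein that the protease PAPP-A cleaves, was at 116, 183, 207 and 129.7 at P4, 258, 313, 130.4 and 235 at P10 and 179, 155, 160.4 and 126 at P24. Its mean was highest at P10, but 1 P10 library was as low as the other ages and the test did not pass (adjusted p = 0.154). Without that library, P10 naive replicate 3, P10 passed against both P4 (log2 0.76, adjusted p = 0.0446) and P24.

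Igfbp5, a binding protein that also attaches to extracellular matrix, was at 244, 409, 189 and 246 at P4, 17.6, 222, 42.5 and 101 at P10 and 169, 102, 95.6 and 96.1 at P24. All P24 values were below all P4 values, whereas the P10 libraries ranged from below both to within the P4 range. For P10 against P4 the log2 change was -2.00 (SE 0.63, adjusted p = 0.0618), just outside the threshold, and for P24 against P4 it was -1.27 (SE 0.64, adjusted p = 0.224). The first difference passed in 5 of the 10 other settings tried and without P10 naive replicate 1 or replicate 2, the lowest and the highest of that age. Without replicate 1 it was -1.26 (adjusted p = 0.0216), and P24 against P4 then passed as well (adjusted p = 0.00350).

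Igfbp6, which prefers IGF2 over IGF1, was at 9.75, 9.31, 10.9 and 6.22 at P4, 8.81, 15.7, 20.9 and 34.996 at P10 and 12.03, 52.04, 11.7 and 87.3 at P24. The 4 P24 libraries fell into a low pair (replicates 1 and 3) and a high pair (replicates 2 and 4), and even the low pair was above every P4 library. P24 against P4 passed (log2 1.82, SE 0.59, adjusted p = 0.0314), but the test over all ages did not (adjusted p = 0.0645). Leaving out any 1 of 4 libraries (P4 naive replicates 3 and 4, P24 naive replicates 2 and 4) ended the call, with an adjusted p of up to 0.270. So did a fit without sex (adjusted p = 0.0734) or with sex by titles (adjusted p = 0.0792). In the authors' deposited table the adjusted p of their age test was 0.00813. Igfbp7, a low-affinity IGF binder known from vessels, was at 36.8, 20.4, 10.8 and 16.6 at P4, 19.6, 26.9, 25.9 and 14.96 at P10 and 8.19, 14.2, 15.6 and 15.5 at P24. Its ranges overlapped throughout (adjusted p = 0.453).

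The naive P24 libraries with most Igfbp3 and Igfbp6 also held most Col3a1, a collagen gene of the fibroblast and meningeal marker list, while the incised ones followed it in part. In the P24 table, naive replicates 1 to 4 held Igfbp3 at 56.6, 125, 81.6 and 187, Igfbp6 at 14.1, 60.7, 13.8 and 101, and Col3a1 at 32.9, 129.6, 9.13 and 174. Replicates 2 and 4 were the 2 highest of the naive group for all 3 genes, and for Igf1 as well (77.3, 102, 31.8 and 179). In the incised group the values were 84.1, 51.4, 108 and 65.6 for Igfbp3, 16.95, 29.9, 55.1 and 37.1 for Igfbp6, 69.02, 87.3, 217 and 141 for Igf1 and 43.9, 137, 196 and 63.7 for Col3a1, with replicate 3 highest for all 4 genes. Incised replicate 2, second for Col3a1, was lowest for Igfbp3, and incised replicate 1, lowest for Col3a1, was second for Igfbp3. Of the other list members, Col1a1, Col1a2 and Apod were also highest in naive replicates 2 and 4. Pdgfra was lowest in those 2 libraries (1207, 865, 963 and 888 in naive replicates 1 to 4), and Lum was high in replicate 4 alone (18.8, 14.6, 13.5 and 42.9). The whole list had 6 of 10 markers in this table, with sums of 2881 to 4221 in naive pups and 2298 to 3479 in incised pups. Naive replicates 2 and 4 had the highest naive sums for this list, and for the neuron and endothelial lists as well. Neuron sums of naive replicates 1 to 4 were 10030, 11611.5, 8976 and 12008, and endothelial sums 310, 520, 449 and 532. For each remaining list, another library was among the 2 highest naive ones. Incised replicate 3 was highest for neither the neuron nor the endothelial sum. The part of these lists in the Igfbp3 and Igfbp6 values was not tested. Col3a1 was picked after its values were seen.

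**Figure D2:**
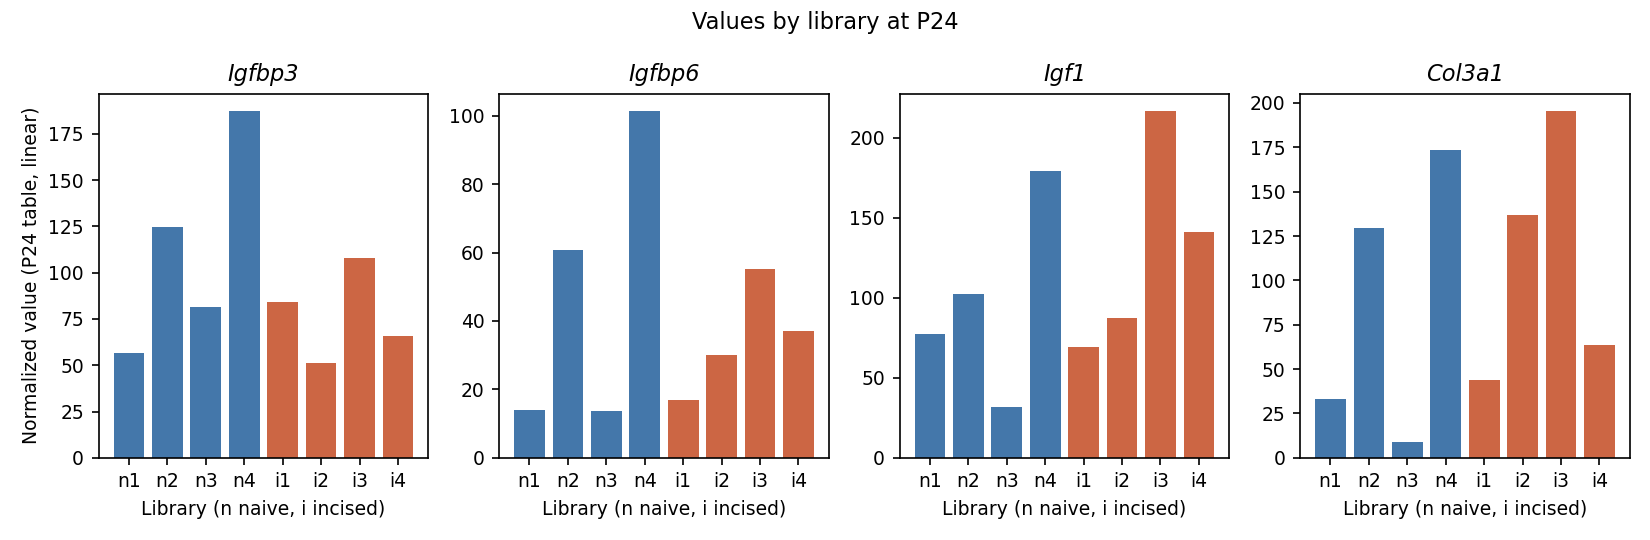
Normalized values (vertical axes, linear, from 0) of Igfbp3, Igfbp6, Igf1 and the collagen gene Col3a1 in the 8 libraries of P24, blue for naive (n1 to n4) and orange for incised (i1 to i4). Bars are single libraries. Libraries n2 and n4 are the highest of the naive group in each panel, and i3 is the highest of the incised group.

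By Pearson correlation of log2(value + 1) over the 12 naive libraries, the genes most like Igfbp2 were 6530411M01Rik (r = 0.950) and 1600020E01Rik (r = 0.943). Those most like Igfbp3 were the NMDA receptor subunit gene Grin1 (r = 0.926) and Tcea2 (r = 0.902), and those most like Igfbp6 were Zfp783 (r = 0.901) and Capzb (r = 0.856). The libraries share 3 ages of 4 pups each, so a gene with the same age pattern correlates highly, and no test was made.

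The other genes of the IGF and insulin pathway were called for age in naive pups about as often as all genes. From 10 lists of 82 genes, 76 were in the age table, 66 of them outside the 10 members. Of those 66, 15 were called for any difference between ages, a share of 22.7%, where all genes gave 24.8%. Their median log2 change for P24 against P4 was -0.08, against 0.01 for all genes. In that comparison 9 of the 66 were called higher at P24 and 4 lower, where all 14985 genes gave 1615 higher and 1099 lower (18.1% called). P10 against P4 gave 5 called higher and 5 lower, where all genes gave 1132 and 836 (13.1% called). P24 against P10 gave 2 called higher and 1 lower, where all genes gave 1138 and 825 (13.1% called).

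Of the ligand list, Igf2 was measured beside Igf1, and the insulin genes Ins1 and Ins2 had no row. Igf2 went from 78.5 ± 30.8 at P4 to 44.4 ± 21.7 at P10 and 64.8 ± 24.8 at P24 (SD, n = 4), which did not pass (adjusted p = 0.0903). Of 3 measured receptors, Igf2r, the mannose 6-phosphate receptor that takes up IGF2, was called. It fell from 105 ± 20.004 at P4 to 50.3 ± 17.4 at P10, a log2 change of -1.08 (SE 0.31, adjusted p = 0.0228), and stood at 82.5 ± 22.4 at P24. That call was lost without P4 naive replicate 2 or 4, and without P10 naive replicate 4 or with groups by titles, where the adjusted p was 0.0704.

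Of 10 adaptors and regulators, 3 were called. Grb14, which binds and inhibits the insulin receptor, rose most, from 23.5 ± 14.1 at P4 to 51.5 ± 22.4 at P10 and 199 ± 19.98 at P24, a log2 change from P4 to P24 of 3.32 (SE 0.43, adjusted p = 3.42e-06). Grb10, a related inhibitor of both receptors, fell from 238 ± 31.996 to 113 ± 21.1 and 114 ± 38.6 (P24 against P4 -1.10, SE 0.26, adjusted p = 0.00368). The docking protein gene Gab1 rose from 96.9 ± 3.73 at P4 to 206 ± 19.6 at P24, by 1.08 (SE 0.26, adjusted p = 0.00387) on the log2 scale. These 3 changes between P4 and P24 kept their calls in all 10 other settings and without any single library.

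Of the 6 measured binding protein genes, Igfbp2 and Igfbp3 were called, and Igfbp1, Igfals and Igfbpl1 had no row. Htra1, a secreted serine protease that can cut IGF-binding proteins, was called of 7 proteases and inhibitors. It rose from 2193 ± 971 at P4 to 5011 ± 1077 at P10 and 5199 ± 1611 at P24 (P24 against P4 1.37, SE 0.31, adjusted p = 0.00878).

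Downstream, 3 of 15 PI3K and AKT genes were called. Phlpp1, a phosphatase that switches AKT off, rose from 241 ± 89.7 at P4 to 475 ± 57.5 at P24, by 1.12 (SE 0.23, adjusted p = 0.00106). The PI3K regulatory subunit gene Pik3r3 rose between P10 and P24 by 0.78 (SE 0.20, adjusted p = 0.0110), and the catalytic subunit gene Pik3cd fell between P4 and P10 by 1.33 (SE 0.42, adjusted p = 0.0358). The Pik3r3 call was lost without P10 naive replicate 2 or P24 naive replicate 4, and the Pik3cd call when any 1 of 7 libraries was left out, P10 naive replicate 4 among them. Pik3r3 also did not pass without trend and robust variances (adjusted p = 0.0745), nor Pik3cd after quantile scaling (adjusted p = 0.0951). Of 6 FOXO and GSK3 genes, Foxo1, a transcription factor that AKT keeps out of the nucleus, rose from 61.5 ± 15.6 to 170.0 ± 40.6 (P24 against P4 1.33, SE 0.29, adjusted p = 0.00178). Gsk3b, a kinase that AKT inhibits, fell from 1555 ± 224 to 882 ± 93.8 (-0.80, SE 0.16, adjusted p = 5.17e-04).

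Of 12 mTOR genes, 2 were called. Deptor, an inhibitor bound to the mTOR kinase, rose from 124 ± 42.8 at P4 to 228 ± 18.5 at P24, by 0.92 (SE 0.26, adjusted p = 0.0118), and lost the call without P4 naive replicate 2 or P24 naive replicate 4. Mtor, the kinase itself, fell between P10 (335 ± 50.2) and P24 (213 ± 24.5), a change of -0.67 (SE 0.20, adjusted p = 0.0254) that did not pass when any 1 of 5 libraries was left out. Of 12 RAS and MAPK genes, Map2k1, the kinase MEK1, was called and rose from 305 ± 32.2 to 585 ± 72.6 (P24 against P4 0.95, SE 0.18, adjusted p = 3.70e-04). Of the 3 IGF2 mRNA-binding protein genes, known from fetal tissue, 2 were called. Igf2bp1 fell from 129 ± 43.1 at P4 to 35.02 ± 2.61 at P24 (-1.76, SE 0.34, adjusted p = 5.82e-04), and Igf2bp3 from 77.8 ± 19.1 to 25.3 ± 7.22 (-1.49, SE 0.47, adjusted p = 0.0294), the latter without a call when any 1 of 6 libraries was left out, or without trend and robust variances (adjusted p = 0.0614). The ninth gene higher at P24 than at P4 was Rps6kb2, an S6 kinase, which passed in this contrast only (log2 0.46, SE 0.15, adjusted p = 0.0397) and is named after its value was seen.

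**Figure D3:**
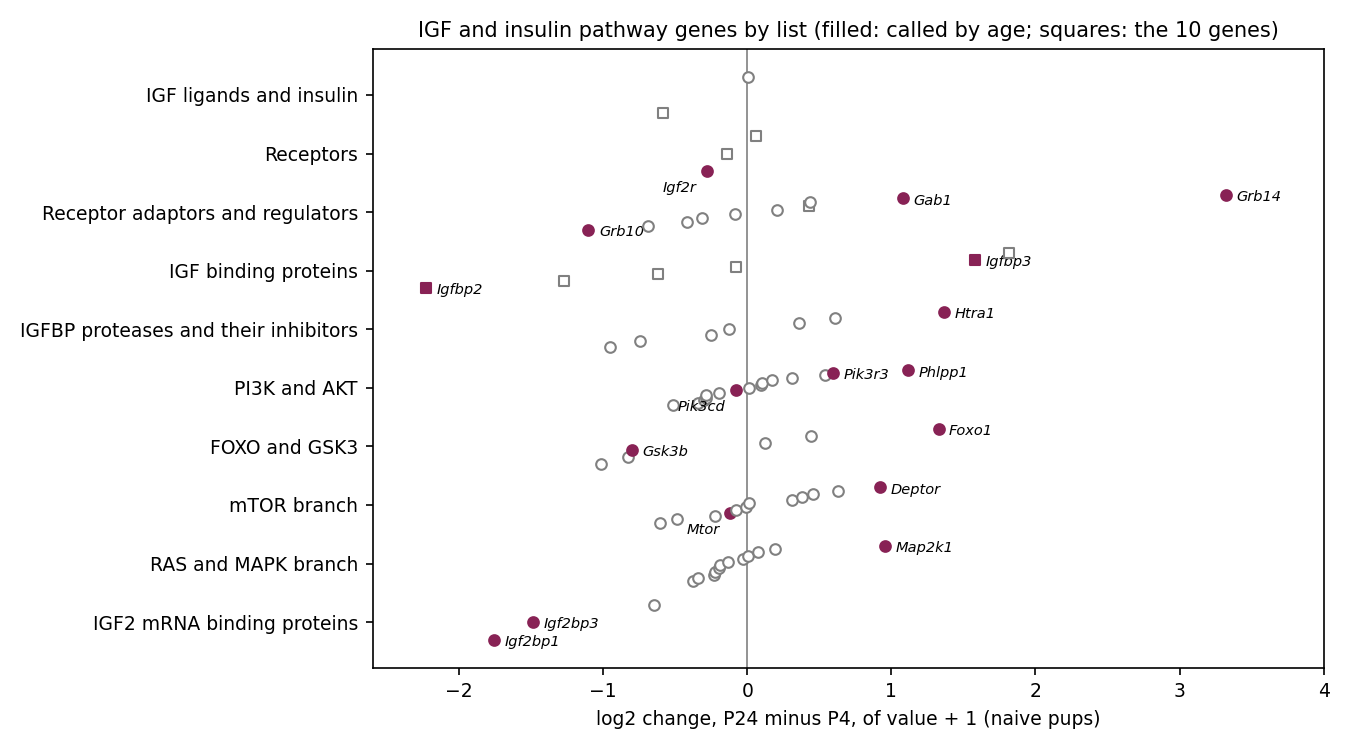
Log2 change between P4 and P24 in naive pups (horizontal axis, on the log2(value + 1) scale) for 76 IGF and insulin pathway genes in 10 lists. Squares are the 10 IGF genes, circles other genes, and filled symbols genes called for any difference between ages. Grb14 lies farthest to the right at 3.32 and Igfbp2 farthest to the left at -2.23.

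After incision, none of the IGF genes passed the test at any age. At P4, 0 of 9 members were called, against 0.0281% of all genes (4 of 14243), and 1 had an unadjusted p under 0.05. At P10, 0 of 9 were called, against 0% of all genes, and at P24, 0 of 10, against 0%, again with 1 member each at an unadjusted p under 0.05. Over all genes, limma gave 1141, 638 and 1237 unadjusted p under 0.05 at the 3 ages. The median change of the members was 0.19 at P4, -0.12 at P10 and -0.09 at P24 on the log2 scale, against -0.02, -0.01 and -0.02 for all genes. The groups did not overlap for 0 of 9 members at P4 (5.90% of all genes), 1 of 9 at P10 (2.48%) and 0 of 10 at P24 (4.96%).

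**Figure D4:**
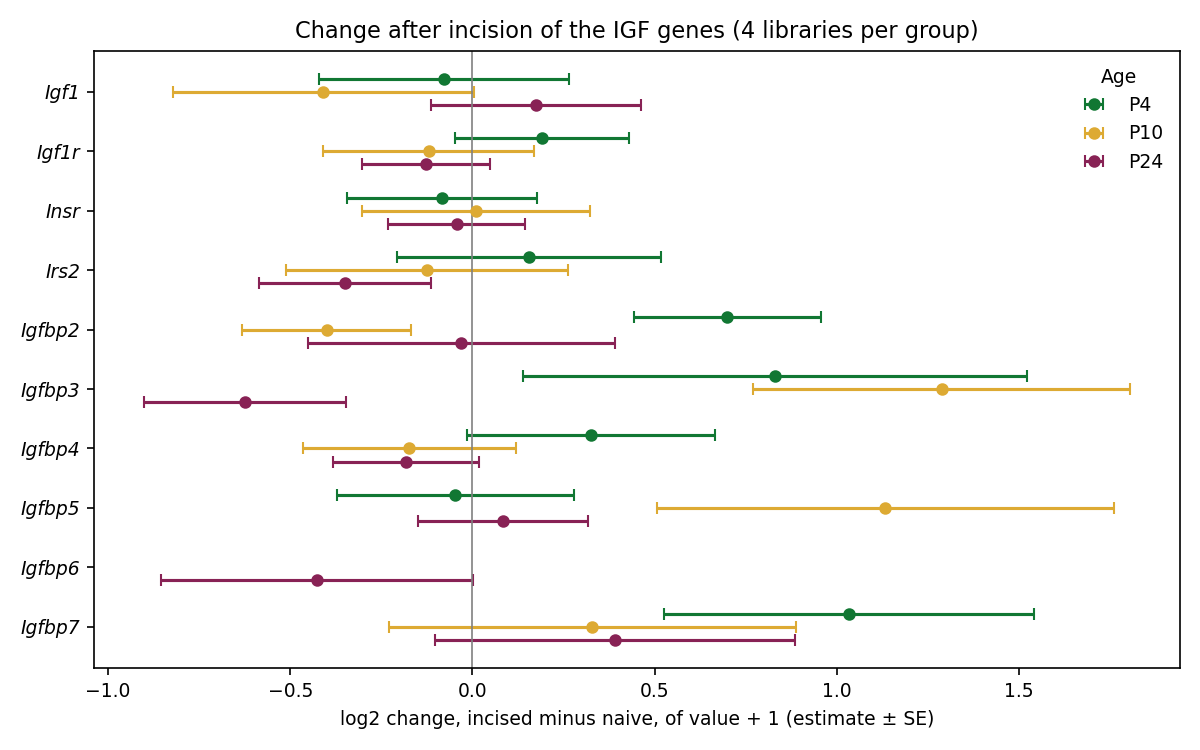
Log2 change of each IGF gene between incised and naive pups (horizontal axis, on the log2(value + 1) scale; points are limma estimates, bars ± SE) at P4 (green), P10 (yellow) and P24 (purple), 4 libraries per group. Most points lie within 0.5 of 0, and the larger changes are those of Igfbp2, Igfbp3 and Igfbp7 at P4, Igfbp3 and Igfbp5 at P10 and Igfbp3 at P24.

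At P4, 1 day after surgery, Igfbp2 had the smallest p of the members. Naive libraries held 1192, 1403, 2651 and 1702 and incised libraries 2796, 4561, 2636 and 2121. Of the incised libraries 2 were above all naive ones, and the groups overlapped through naive replicate 3. The means were 1737 ± 645 and 3028 ± 1061 (SD, n = 4 each), a log2 difference of 0.70 (SE 0.26, unadjusted p = 0.0174, adjusted p = 0.540). The authors' deposited table gives a log2 fold change of 0.73 and an adjusted p of 0.388 for the same comparison. Sums of 9 of 10 mural cell markers, which include Acta2 and Tagln, were 453 to 736 in naive pups and 824 to 1191 in incised pups at this age, with no overlap. Acta2 was at 26.3, 21.7, 25.8 and 23.5 in naive pups and 194, 344, 91.02 and 96.97 in incised pups, and Tagln at 63.01, 30.7, 37.5 and 47.8 and 196, 261, 90.1 and 134. Without these, the other 7 summed to 400.1 to 665 in naive pups and 482 to 1010.2 in incised pups, which overlap. Sums of 9 oligodendrocyte precursor markers were 1617 to 1872 and 1909 to 2835, without overlap. The sums of all other marker lists overlapped between naive and incised pups at P4, and at P10 those of every list did. The part of the mural and precursor markers in the P4 values was not tested.

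Igfbp7 was at 30.9, 17.1, 9.001 and 13.9 in naive pups and 22.7, 36.7, 49.9 and 26.7 in incised pups at P4. Of the incised libraries 2 were above all naive ones, and the log2 difference of 1.03 (SE 0.51) did not pass (adjusted p = 0.641). Igfbp3 was at 14.2, 21.7, 44.9 and 39.1 in naive pups and 123, 94.9, 37.6 and 12.2 in incised pups. The incised libraries spanned more than the whole naive range, and the difference was 0.83 (SE 0.69, adjusted p = 0.790). It turned to -0.23 without incised replicate 1.

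The remaining members differed by at most 0.33 at P4. Igf1 was at 113 ± 17.5 in naive pups and 120.4 ± 50.01 in incised pups, Igf1r at 209.9 ± 15.7 and 246 ± 38.3, and Insr at 189.7 ± 22.7 and 177 ± 29.02. Irs2 was at 69.3 ± 22.6 and 82.03 ± 20.5, Igfbp4 at 133 ± 35.9 and 170.3 ± 48.8, and Igfbp5 at 229 ± 80.1 and 211 ± 76.7 (SD, n = 4 per group). All of these ranges overlapped, and the adjusted p ran from 0.840 to 0.977.

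At P10, Igfbp3 was the member whose groups did not overlap. Naive libraries held 18.7, 21.2, 9.10 and 24.4 and incised libraries 36.5, 36.5, 61.9 and 44.05, so every incised value was above every naive one. The means of 18.3 ± 6.58 and 44.7 ± 11.97 (SD, n = 4 each) gave a log2 difference of 1.29 (SE 0.52, unadjusted p = 0.0207), which did not pass over all genes (adjusted p = 0.968). Without the pair of libraries whose titles contradict their labels it was 1.44 (adjusted p = 0.909), with 3 libraries a group. The authors' deposited table lists 1.26 with an adjusted p of 0.920.

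Igfbp5 at P10 was at 14.9, 192, 36.7 and 86.7 in naive pups and 173, 94.2, 174 and 80.04 in incised pups. The naive libraries spread widely, the incised ones lay within that spread, and the difference of 1.13 (SE 0.63) did not pass (adjusted p = 0.968). It was 0.40 without the lowest naive library, replicate 1, and 1.55 (adjusted p = 0.909) without the pair with contradictory titles. Igfbp2 was at 2473, 1688, 2312 and 1849 in naive pups and 2146, 1718, 1905 and 838 in incised pups at P10. The log2 difference was -0.40 (SE 0.23, adjusted p = 0.968), and without the pair of doubtful titles -0.15 (adjusted p = 0.979).

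Of the other members at P10, Igf1 was at 87.1 ± 36.1 in naive pups and 62.2 ± 14.7 in incised pups, a log2 difference of -0.41 (SE 0.41). Insr was at 173 ± 70.3 and 161 ± 5.64, with incised libraries spanning 155 to 166 and naive ones 80.7 to 229. Igf1r was at 264 ± 69.9 and 247 ± 78.6, Irs2 at 96.3 ± 32.4 and 87.4 ± 26.5, Igfbp4 at 202 ± 65.8 and 183 ± 78.6, and Igfbp7 at 18.9 ± 4.97 and 25.7 ± 14.7 (SD, n = 4). None passed, with adjusted p from 0.979 to 0.999. Leaving out the pair with contradictory titles, the adjusted p of these 6 ran from 0.979 to 0.995.

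**Figure D5:**
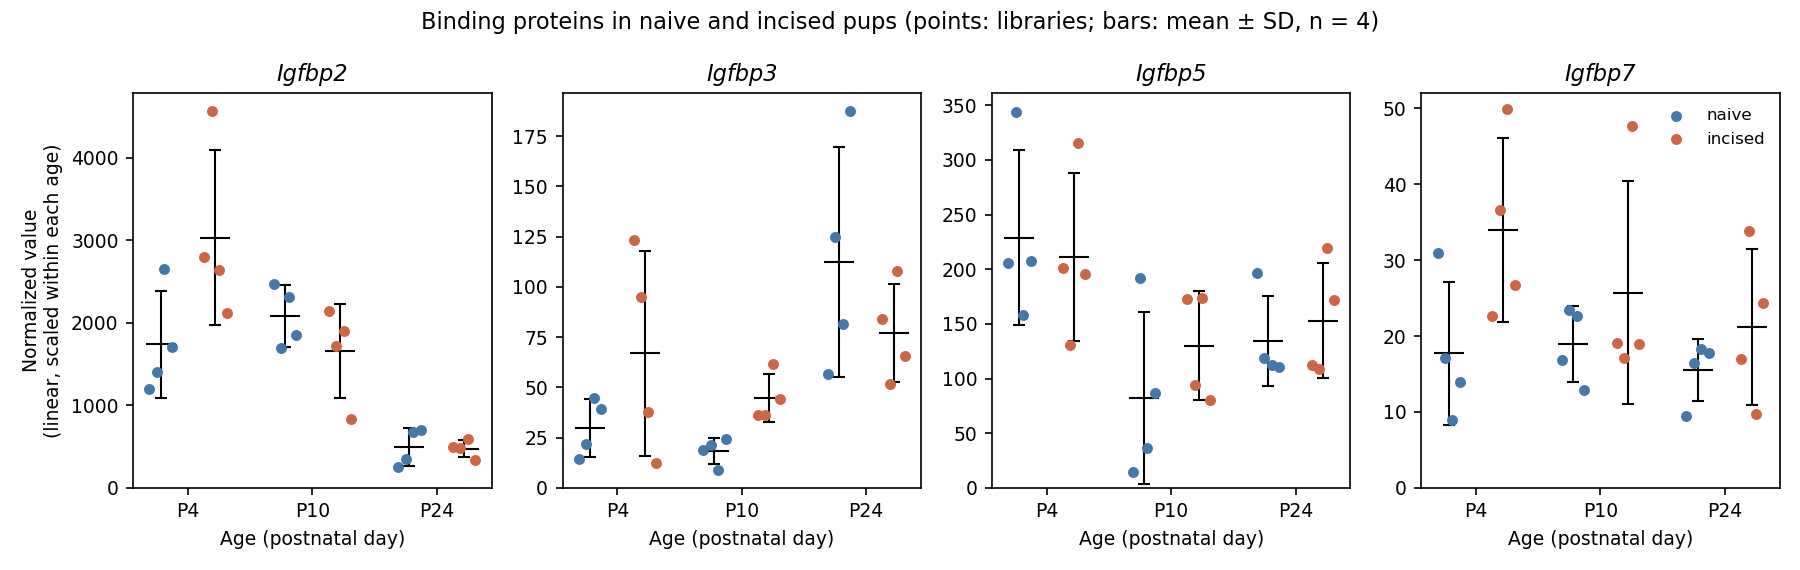
Normalized values (vertical axes, linear, from 0) of Igfbp2, Igfbp3, Igfbp5 and Igfbp7 in naive (blue) and incised (orange) pups at P4, P10 and P24. Points are libraries and bars the mean ± SD of 4. Values are scaled within each age. At P10 the incised Igfbp3 libraries, 36.5 to 61.9, lie above the naive ones, 9.10 to 24.4.

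At P24, 21 days after surgery, Igfbp3 had the smallest p of the members, with its mean now lower in incised pups. Naive libraries held 56.6, 125, 81.6 and 187 and incised libraries 84.1, 51.4, 108 and 65.6. The groups overlapped, and 2 naive libraries, replicates 2 and 4, were above all incised ones. The log2 difference was -0.62 (SE 0.28, unadjusted p = 0.0305, adjusted p = 0.586). Without naive replicate 4 it was -0.34. At this age the oligodendrocyte marker sums (10 of 10 markers) were 92998 to 106600.0 in naive pups and 70583 to 84308 in incised pups, without overlap. Those of the oligodendrocyte precursor list (9 of 9) were 5967 to 7854 and 4344 to 5639, also without overlap. The sums of all other marker lists overlapped at P24. The part of the oligodendrocyte and precursor markers in the P24 values was not tested.

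Igfbp2 at P24 was at 495 ± 230.2 in naive pups and 474 ± 105 in incised pups (SD, n = 4), a difference of -0.03 (SE 0.42). Igfbp6, measured for incision at this age alone, was at 14.1, 60.7, 13.8 and 101 in naive pups and 16.95, 29.9, 55.1 and 37.1 in incised pups. Naive pups held both the 2 lowest and the 2 highest values, and the difference of -0.43 (SE 0.43) did not pass. Irs2 was at 136, 90.6, 141 and 121 in naive pups and 116, 82.8, 78.7 and 98.03 in incised pups, a difference of -0.35 (SE 0.24), and Igf1 at 97.7 ± 61.7 and 128 ± 66.2. Igf1r was at 288 ± 32.2 and 269.8 ± 63.3, Insr at 228 ± 46.4 and 211 ± 42.1, and Igfbp4 at 181 ± 26.2 and 159.9 ± 27.2. Igfbp5 was at 134 ± 41.4 and 153 ± 52.9, and Igfbp7 at 15.5 ± 4.08 and 21.2 ± 10.3. The adjusted p of these 9 ran from 0.730 to 0.992.

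A change of the incision effect with age was tested by interaction terms over the 13200 genes that all 3 incision tables hold, which leaves out Igfbp6. Of the 9 members 0 were called, against 0.167% of all genes (22 genes), and no member had an unadjusted p under 0.05 in the test over all ages. Igfbp2 had an adjusted p of 0.534 and Igfbp3 of 0.560. Between single ages, the incision difference of Igfbp2 was lower at P10 than at P4 (-1.18 on the log2 scale, SE 0.46, unadjusted p = 0.0180, adjusted p = 0.283). That of Igfbp3 was lower at P24 than at P10 (-1.79, SE 0.74, unadjusted p = 0.0224, adjusted p = 1.000). Neither passed over all genes, and each model sets separately normalized tables side by side.

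The rest of the pathway also held no call for incision. Of the pathway genes outside the members, 0 of 66 were called at P4, 0 of 61 at P10 and 0 of 67 at P24, with 6, 3 and 5 at an unadjusted p under 0.05. Over all genes, 1141 of 14243, 638 of 13699 and 1237 of 15246 had such a p. The lowest adjusted p of the pathway genes was 0.486 at P4 (the kinase gene Braf) and 0.479 at P24 (Akt2). Their median log2 changes were -0.005, -0.03 and 0.06.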

How the data were processed

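The submitters' processing notes name STAR, Salmon, DESeq2 and the mm10 build, without versions. The deposited values are normalized signals, depth-scaled per gene and scaled separately in each of 4 tables, and per the file headers genes needed 10 counts or more in 4 or more samples. None of the values came out as whole reads (tolerance 1e-06), so depth is unknown and no count test was run. P-values and log2 fold changes named as the authors' come from their deposited tables, which used DESeq2 with sex as a term. Groups follow the labels' characteristics and the deposited sample sheet, which gives the sex used. Of the 24 titles, 2 contradict the group and 4 the sex. Replicate numbers are in accession order, and p-values measure the spread between pups of these groups.

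Values were tested as log2(value + 1) with limma 3.58.1 (R 4.3.3, statmod 1.5.0), with an intensity trend, robust variances and sex, on genes with a mean of at least 10 (which left out 0 genes). Benjamini-Hochberg adjustment ran over all genes of a table, 2-sided, with a threshold of 0.05. The test was tried on simulated data. The alternatives were other pseudocounts, filters and scalings, no trend, other sex terms, groups by titles, a replicate block and leaving out libraries. Members, marker lists and pathway lists were chosen with earlier results of these data known. Named were all members, every called gene of the ligand, receptor, adaptor, binding protein and protease lists, the 3 called genes of smallest p in each other list, and 2 genes most correlated with each of the 3 members of smallest p. Figures were drawn with matplotlib 3.10.9. The result of 1 pathway gene is not reported here.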

Additional observations from a re-analysis of the deposited data

Results flagged for a closer look

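Among 86 groups of 4 libraries checked, 5 held a library far from the other 3 by Dixon's criterion, which chance gives in about 1 of 20 groups. Igf1 in P10 incised replicate 2 was at 84.1, with the others at 53.4 to 57.6. Igfbp7 in P10 incised replicate 3 was at 47.7, with the others at 17.2 to 19.1. Irs2 in P4 incised replicate 2 was at 113, with the others at 70.2 to 74.2. Igfbp5 in P24 naive replicate 1 was at 169 in the age table, with the others at 95.6 to 102, and at 196 in the P24 table, with the others at 111 to 118, which is 1 library seen in both tables.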

How the results depend on the processing

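For age, the Igfbp2 calls at P24 held against both younger ages in all 10 other settings and without any single library, with log2 changes of -2.71 to -2.26 against P10 and -2.45 to -2.01 against P4 when libraries were left out. The Igfbp3 rise from P10 to P24 did not pass under the replicate block (adjusted p = 0.0616) and passed in the other 9 settings. The causes of the changes below were not tested.

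The count of genes called for incision at P4 (4) was 7 with a pseudocount of 10, 9 with a mean of at least 50, 0 without trend and robust variances, 15 after quantile scaling and 12 without sex. The count for the age-dependent incision effect (22) was 4 without trend and robust variances, 34 after quantile scaling, 1 with sex by titles, 12 with groups by titles and 8 without the pair of libraries of contradictory titles. The incision log2 changes that turned sign were Igf1 at P4 (0.019 without sex), Insr at P10 (-0.020 quantile, -0.060 sex by titles), Igfbp4 (0.14) and Igfbp7 (-0.019) at P10 with groups by titles, and, at P24, Insr (0.0025 quantile) and Igfbp2 (0.037 with quantile scaling, 0.042 without sex or with sex by titles). For age, Irs2 at P24 against P10 turned to -0.045 (quantile), -0.029 (no sex), -0.14 (sex by titles) and -0.16 (groups by titles, or without the pair), and Igf1r at P24 against P4 to -0.031 (quantile).

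No pairing of pups by the labels' sex-wise numbers was seen: same-numbered libraries deviated with correlations of -0.123 to 0.026. So few pairs cannot exclude a pairing. With the replicate block, 6 genes were called for incision at P10, 17 at P24, and 1287 for P24 against P10 in naive pups. Under the block the incision changes of Igf1 (0.15) and Igfbp5 (0.10) at P4, Insr (-0.26), Igfbp4 (0.48) and Igfbp7 (-0.33) at P10 and Igfbp6 (0.51) at P24 turned sign, as did Irs2 at P24 against P10 (-0.15) and Igf1r at P24 against P4 (-0.13). For P24 against P4, Igfbp3 (adjusted p = 0.130), Igfbp6 (adjusted p = 0.307) and Igf2bp3 (adjusted p = 0.0827) did not pass under it, nor did Igf2r (adjusted p = 0.150) and Pik3cd (adjusted p = 0.121) for P10 against P4, while Igfbp5 passed for P10 against P4 (adjusted p = 0.00188) and P24 against P4 (adjusted p = 0.0217).

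Leaving out 1 library at a time gave 0 to 8 genes called for incision at P4, 0 to 1 at P10, 0 to 5 at P24, 1231 to 2069 for P24 against P10, and 0 to 50 for the age-dependent incision effect, a range chosen after seeing the data. Log2 changes that turned sign were, for incision at P4, Igf1 (-0.26 to 0.13), Igfbp3 (-0.23 to 1.40) and Igfbp5 (-0.27 to 0.15); at P10, Igf1r (-0.32 to 0.14), Insr (-0.27 to 0.11), Irs2 (-0.39 to 0.11), Igfbp4 (-0.30 to 0.029) and Igfbp7 (-0.019 to 0.51); and at P24, Igf1 (-0.13 to 0.37), Igf1r (-0.35 to 0.023), Insr (-0.21 to 0.16), Igfbp2 (-0.26 to 0.32) and Igfbp5 (-0.32 to 0.29). For age they were Insr (-0.43 to 0.055) and Igfbp7 (-0.091 to 0.42) from P4 to P10, Igf1 (-0.36 to 0.28), Igf1r (-0.39 to 0.023), Insr (-0.25 to 0.44), Irs2 (-0.16 to 0.24) and Igfbp5 (-0.15 to 1.46) from P10 to P24, and Insr (-0.25 to 0.17) and Igfbp4 (-0.33 to 0.10) from P4 to P24. For the difference in incision effect between P10 and P4, Igfbp3 ran from -0.11 to 1.18. Depth is unknown, so no detection limit can be given.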
